A study of Mus musculus with 6 samples.

Results

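Keratins are the intermediate filament proteins of epithelial cells, and the genes described here are those whose array probes carry a gene symbol made of Krt and a number. The rule found 63 probes for 47 genes among the 46619 probes of the array, and keratin-associated proteins (Krtap) and Krtdap were left out. By subunit family 25 genes were type I, 21 were type II and Krt88 was placed only by its position in the type II locus. The cells were MHCIIhi mTECs of C57Bl/6 mice, that is thymic medullary epithelium with abundant MHC class II. mTECs are stromal cells of the thymus that display proteins of other tissues to developing T cells. Each of 6 Illumina bead arrays measured total RNA of 1 sample, 3 from wild-type mice and 3 from Aire knock out mice, which lack the transcriptional regulator Aire. Wild-type replicates 1 and 3 and knock out replicate 2 came from females and the others from males. The sources used here give no age, no allele, no further gate and no statement on pooling of mice, so p-values describe the spread between these samples.

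Keratin filaments are obligate heteropolymers, in which a type I subunit pairs with a type II subunit. Each layer and kind of epithelium has its own pairs: simple epithelia use the partners Krt8 and Krt18, the basal layer of stratified epithelia uses Krt5 and Krt14, the layers above it in skin use Krt1 and Krt10, and moist mucosa uses Krt4 and Krt13. Hair keratins build the shaft and the inner root sheath of the hair follicle. In the thymus, Krt5 and Krt14 are classical markers of the medulla, and Krt8 and Krt18 are found in thymic epithelium more widely. Aire is known for raising the expression of many tissue-restricted genes in mTECs.

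To show the regions upstream of the genes that the comparison turns on, the promoter sequences of Krt13, Krt36 and Krt27, which had the 3 largest fitted differences but no knock out signal above background, and of the neighbouring pair Krt8 and Krt18 are given 5′ to 3′, from 250 bases before to 50 bases after the annotated start (RefSeq, GRCm38.p6). Capitals mark TATAAA on the strand of the gene. The Krt13 sequence is the first of its entries.
Krt13, chr11:100121517-100121816, minus strand: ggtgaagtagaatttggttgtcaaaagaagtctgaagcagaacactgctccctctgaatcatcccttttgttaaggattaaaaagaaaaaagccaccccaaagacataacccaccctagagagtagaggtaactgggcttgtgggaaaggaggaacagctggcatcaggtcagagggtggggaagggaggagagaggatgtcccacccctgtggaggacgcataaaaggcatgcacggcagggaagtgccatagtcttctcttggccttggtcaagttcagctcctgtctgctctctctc
Krt36, chr11:100105577-100105876, minus strand: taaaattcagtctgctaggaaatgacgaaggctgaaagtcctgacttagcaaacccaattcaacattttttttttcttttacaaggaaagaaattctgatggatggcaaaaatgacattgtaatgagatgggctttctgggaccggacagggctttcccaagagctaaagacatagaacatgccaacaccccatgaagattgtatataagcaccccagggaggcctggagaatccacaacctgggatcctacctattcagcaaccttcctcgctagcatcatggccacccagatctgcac
Krt27, chr11:99351069-99351368, minus strand: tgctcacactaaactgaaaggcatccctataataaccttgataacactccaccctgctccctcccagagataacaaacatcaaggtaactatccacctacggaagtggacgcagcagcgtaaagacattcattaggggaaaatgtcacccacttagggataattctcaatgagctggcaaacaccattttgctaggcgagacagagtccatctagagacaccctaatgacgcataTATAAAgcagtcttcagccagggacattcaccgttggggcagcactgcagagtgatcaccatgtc
Krt18, chr15:102027966-102028265, plus strand: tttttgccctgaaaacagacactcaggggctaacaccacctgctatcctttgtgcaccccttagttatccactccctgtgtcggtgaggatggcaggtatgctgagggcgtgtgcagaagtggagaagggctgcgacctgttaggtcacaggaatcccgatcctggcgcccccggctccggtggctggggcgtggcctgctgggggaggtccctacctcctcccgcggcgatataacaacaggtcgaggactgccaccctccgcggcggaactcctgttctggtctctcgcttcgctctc
Krt8, chr15:102004293-102004592, minus strand: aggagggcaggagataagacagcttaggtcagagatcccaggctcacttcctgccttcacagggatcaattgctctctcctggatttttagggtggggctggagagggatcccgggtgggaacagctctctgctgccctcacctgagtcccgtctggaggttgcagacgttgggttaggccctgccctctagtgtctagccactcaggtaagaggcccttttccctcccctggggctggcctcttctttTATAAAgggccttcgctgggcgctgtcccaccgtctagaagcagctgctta
Of the 47 keratin genes 33 had such an entry, with 34 promoters in all. The motif TATAAA, searched on both strands of the 300 bases, was in 16 of the 34 (47.1%), against 13.6% of all 32851 promoters of the same length. On the strand of the gene and starting between -40 and -15 from the start site it was in 12 of 34 (35.3%), against 2.11% of all. Among genes lower in the knock out 11 of 25 promoters held TATAAA on either strand, and among genes that did not pass the test 3 of 5 did. The GC box GGGCGG, on both strands, was in 2 of the 34 and in 35.7% of all promoters, and the AP-1 motif TGANTCA, on both strands, in 2 of the 34 and in 7.81% of all. The searched motifs do not overlap one another in their letters. These matches describe letters in a window and say nothing of which factors bind.

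The deposited values are normalized log2 values that still hold a background level, so a probe was called above background on an array when it exceeded that array's background bound of 6.81. A probe was tested when it did so on at least 3 of the 6 arrays. This left 19420 probes and 11740 named genes, and for each gene its brightest tested probe was read. The arrays correlated with r between 0.983 and 0.994 within a genotype and between 0.909 and 0.934 across genotypes, over tested probes, which are not independent replicates. The targeted gene itself was lower: the brighter Aire probe read 13.55, 13.66 and 13.40 in wild type against 10.36, 10.30 and 10.01 in the knock out. Marker lists of other cells were mixed. Of the mTEC list all 9 genes with a probe were above background. Tnfrsf11a (0.51) and H2-Aa (0.45) were higher, Aire was lower and 6 did not pass. Of 7 thymocyte markers with a probe Cd4, Rag1 and Dntt were not, and of the 4 that were, Cd3g was lower (-1.01) while Cd3e, Cd8a and Ptcra did not pass. Of 6 dendritic cell and macrophage markers Itgax, Xcr1 and Clec9a were not above background, Cd14 (-2.01) and Adgre1 (at least 1.22-fold) were lower and Lyz2 did not pass. The B cell marker Cd79a was at least 1.26-fold lower, and Ms4a1 was not above background. The summed level (antilog) of 4 fibroblast markers was 2527 to 3391 in wild type and 5597 to 5815 in the knock out. This sum mostly followed the brightest of them, Dcn (wild-type mean 11.19, knock out mean 12.36), which was higher (1.17). Col1a1 was lower (-1.31) and Pdgfra and Pdgfrb did not pass. For 5 cortical epithelial markers the sum was 7563 to 8704 and 9577 to 11704. It mostly followed Ccl25 (wild-type mean 12.88, knock out mean 13.27). Ccl25, Ly75 and Prss16 were higher, Dll4 was lower (-0.55) and Psmb11 did not pass. Their part in the keratin results was not tested.

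The comparison of genotypes asks how the keratin repertoire of mTECs depends on Aire. Without Aire 15 of 16 stratified and 11 of 13 tested hair follicle keratins were lower, in both gene families. The simple pair Krt8 and Krt18, the stratified keratin Krt17, the hair follicle keratins Krt26 and Krt31, and Krt79 and Krt222 did not pass the test. Of 41 tested keratin genes 34 were lower, none was higher and 7 did not pass (limma, adjusted p under 0.05). None was higher at an unadjusted p under 0.05 either. Among all tested named genes 23.1% were lower and 18.3% higher. Of the 41 keratin genes 22 were lower by at least 1 log2 unit, against 8.16% of named genes. All knock out arrays lay below all wild-type arrays for 34 keratin genes, against 27.2% of named genes, and above them for 1 (Krt18), against 27.1%. The median log2 difference, knock out minus wild type, was -1.13 over the keratin genes and 0.02 over all tested named genes. All 41 were above background on all 3 wild-type arrays, and 17 of them passed the filter only through those arrays, so the share of falls in the tested genes is partly set by the filter. Of the 24 keratin genes above background on all 6 arrays 19 were lower and none higher, against 16.7% lower and 20.2% higher among such named genes. With no filter 35 of all 47 were lower and none higher, against 15.2% lower and 10.6% higher among all named genes. In bulk RNA, fewer cells that express a gene and less RNA per cell cannot be told apart.

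Within beadchip 1, which held wild-type replicates 1 and 2 and knock out replicate 1, 25 keratin genes were lower with a median of -1.24. Within beadchip 2, which held the other 3 arrays, 26 were lower with a median of -1.10. Each beadchip held a single array of one genotype, which was assumed to vary like the others, and over all 19420 tested probes 1467 were lower within beadchip 1 and 1706 within beadchip 2. With beadchip as a block 33 keratin genes were lower, against 3164 lower and 3423 higher of the 19420 tested probes. With sex as a covariate 35 were lower, against 3340 lower and 3530 higher probes. Adjusted for the date label, the keratin median was -1.16, against 0.04 over all tested named genes. An earlier date is on the labels of wild-type replicates 1 and 2, so this adjustment sets the knock out against wild-type replicate 3. Over all tested probes the split of calls depended on the scaling, with 3446 lower and 4022 higher as deposited, 4122 and 2341 after cyclic loess and 2456 and 952 after scaling to housekeeping genes. The keratin split was 36 lower after cyclic loess and 31 after housekeeping scaling, with none higher in either.

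**Figure D1:**
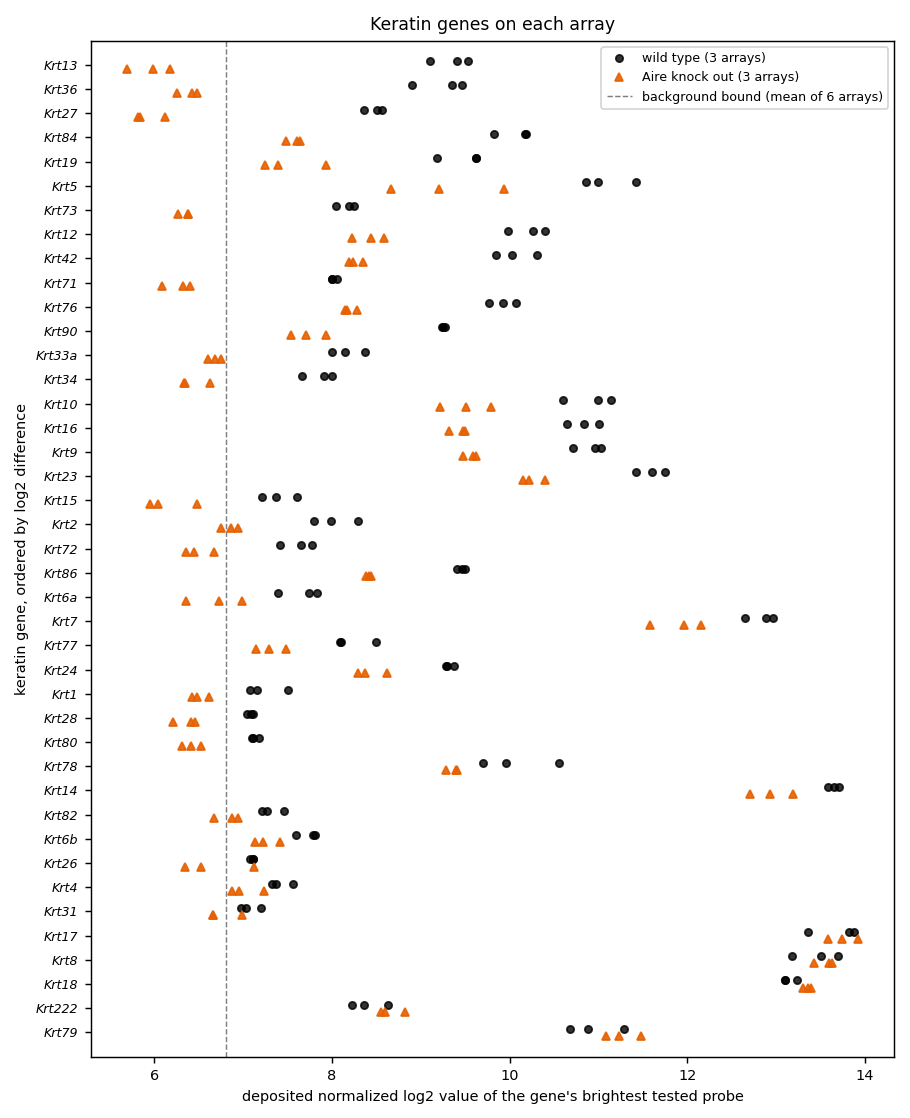
Deposited normalized log2 value of the brightest tested probe (horizontal axis) of each of the 41 tested keratin genes (vertical axis, ordered by log2 difference), with black circles for the 3 wild-type arrays, orange triangles for the 3 Aire knock out arrays and a dashed line at the background bound of 6.81. The triangles of Krt13, Krt36 and Krt27 lie below the bound, while those of Krt17 and Krt8 lie among the circles.

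**Figure D2:**
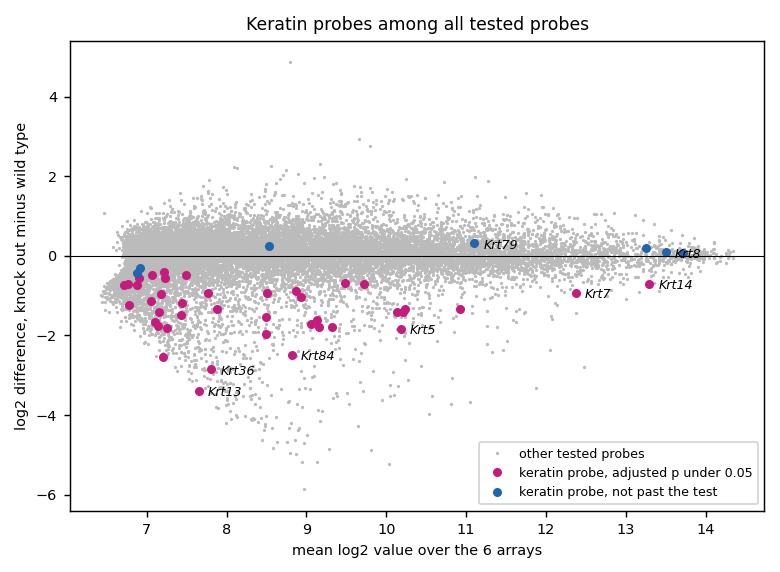
Log2 difference, knock out minus wild type (vertical axis), against the mean log2 value over the 6 arrays (horizontal axis) for all 19420 tested probes in grey, with keratin probes that passed the test in magenta and those that did not in blue. The magenta points all lie below 0. Among the brightest keratins Krt8 (0.09), Krt17 (0.06) and Krt18 (0.20) lie near 0, while Krt14 lies at -0.70.

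Of the 4 tested simple keratins Krt7 and Krt19 were lower and Krt8 and Krt18 did not pass. Krt8, the type II partner of simple epithelia, had log2 values of 13.50, 13.70 and 13.17 in wild-type replicates 1 to 3, against 13.63, 13.42 and 13.60 in knock out replicates 1 to 3. Its type I partner Krt18 read 13.24, 13.10 and 13.10 and then 13.40, 13.36 and 13.30. The groups overlapped for Krt8 and lay just apart for Krt18, and the differences of 0.09 (SE 0.14, adjusted p = 0.615) and 0.20 (SE 0.10, adjusted p = 0.117) did not pass. Krt8 had differences between -0.05 and 0.38 over the alternatives and thus no settled sign. Krt19, a small type I keratin of ducts that lacks the usual tail, read 9.63, 9.19 and 9.62 in wild type and 7.39, 7.24 and 7.94 in the knock out. It was 3.88-fold lower (log2 difference -1.95, SE 0.19, adjusted p = 3.20e-05). Krt7, the type II keratin of glandular ducts, read 12.88, 12.97 and 12.65 and then 11.97, 11.58 and 12.15, which is 1.91-fold lower (SE 0.15, adjusted p = 0.00111). For both genes every knock out array lay below every wild-type array, as for 27.2% of named genes. Within beadchip 2, with 1 wild-type array, Krt7 differed by -0.78 and did not pass (adjusted p = 0.115). The gut keratin Krt20 was not above background on any array.

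Whether these neighbours in function moved unequally was tested on the difference between the log2 values of 2 probes on each array. These pairs, 8 in all with the pairs described further on, were chosen after their values were seen. The exact two-sided permutation test cannot go below p = 0.1 with 3 arrays against 3, so none can pass. Krt19 minus Krt18 differed by -2.16 (exact permutation p = 0.1, adjusted p = 0.133), with the arrays of the groups apart. For Krt7 minus Krt8 the difference was -1.03 with the same p-values. Krt8 minus Krt18 differed by -0.11 (exact permutation p = 0.6, adjusted p = 0.6).

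Against 23.1% of all tested named genes, 15 of the 16 stratified keratins, all tested, were lower, with a median of -1.21. The basal keratins that mark the medulla were among them. Krt5 read 11.43, 10.99 and 10.86 in wild type and 9.20, 8.66 and 9.93 in the knock out. It was 3.54-fold lower (SE 0.28, adjusted p = 6.59e-04), and its knock out arrays spread the most of all keratins (SD 0.64). Its partner Krt14 read 13.58, 13.71 and 13.65 and then 12.93, 12.71 and 13.18, 1.63-fold lower (SE 0.13, adjusted p = 0.00199). For both, all knock out arrays lay below all wild-type arrays, as for 27.2% of named genes. Knock out replicate 3 was the highest of its group for both. Within beadchip 2 neither passed, at -1.56 (adjusted p = 0.106) for Krt5 and -0.70 (adjusted p = 0.112) for Krt14, and within beadchip 1 Krt14 did not (-0.71, adjusted p = 0.0785). Krt5 minus Krt14 differed by -1.12 (exact permutation p = 0.1, adjusted p = 0.133). Krt15, another basal keratin known from the hair bulge, read 7.37, 7.21 and 7.61 in wild type and was above background on no knock out array, at least 1.50-fold lower. Here and below, "at least" marks a fold against the lowest signal above background or the probe's own signal, whichever was higher on each array.

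The keratins of the layers above the basal one were lower as well. Krt10, the type I keratin of spinous epidermis, read 11.14, 10.60 and 11.00 in wild type and 9.50, 9.22 and 9.79 in the knock out, 2.65-fold lower (SE 0.17, adjusted p = 1.80e-04). Its partner Krt1 read 7.08, 7.15 and 7.50 and was not above background on any knock out array, at least 1.35-fold lower. Krt2 of upper epidermis differed by -1.17 (SE 0.13), and it stayed above background on 2 knock out arrays. Krt9, a keratin of palm and sole skin, differed by -1.34 (SE 0.11), and Krt77, known from sweat ducts, by -0.92 (SE 0.14). For all of these every knock out array lay below every wild-type one, as for 27.2% of named genes. Krt1 minus Krt10 differed by 0.67 (exact permutation p = 0.1, adjusted p = 0.133). Background limits the measured fall of Krt1, which can enlarge this value.

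Mucosal and corneal keratins showed both the largest and the smallest falls of the stratified class. Krt13, of the layers above the basal one in moist mucosa, read 9.53, 9.40 and 9.10 in wild type and 6.18, 5.70 and 5.99 in the knock out. All knock out values lay below the background bound, and Krt13 was at least 5.80-fold lower (log2 difference -3.39, SE 0.15, adjusted p = 1.49e-07). Its partner Krt4 read 7.37, 7.57 and 7.32 and then 7.23, 6.95 and 6.88, 1.32-fold lower (SE 0.12, adjusted p = 0.0291). Krt4 kept its call in 13 of 21 alternatives. It was lost without wild-type replicate 2 (-0.32, adjusted p = 0.0967), without knock out replicate 2 (-0.36, 0.101), without knock out replicate 3 (-0.33, 0.0922) and with beadchip as a block (-0.32, 0.0566). It was also lost with the date label (-0.30, adjusted p = 0.27), with housekeeping scaling (-0.48, 0.171) and within beadchip 1 (-0.23, 0.513) and beadchip 2 (-0.41, 0.143). Krt4 minus Krt13 differed by 2.99 (exact permutation p = 0.1, adjusted p = 0.133), a value that rests on Krt13 signals below the bound in the knock out. Krt76 of the palate differed by -1.72 (SE 0.11). Krt12, the keratin of corneal epithelium, read 10.27, 10.40 and 9.98 and then 8.59, 8.22 and 8.44, 3.48-fold lower (SE 0.14, adjusted p = 6.60e-06), and a second probe differed by -1.62 (SE 0.11).

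Of the keratins induced in wounds and in skin appendages Krt16, Krt6a and Krt6b were lower and Krt17 did not pass. Krt16 read 11.01, 10.64 and 10.84 in wild type and 9.49, 9.32 and 9.47 in the knock out, 2.64-fold lower (SE 0.12, adjusted p = 1.23e-05). Krt17 read 13.82, 13.88 and 13.36 and then 13.92, 13.74 and 13.58, so its groups overlapped and its difference of 0.06 (SE 0.15, adjusted p = 0.769) did not pass. The sign of Krt17 was not settled, with -0.10 to 0.38 over the alternatives. Krt16 minus Krt17 differed by -1.46 (exact permutation p = 0.1, adjusted p = 0.133). The type II partners Krt6a (-0.96, SE 0.17) and Krt6b (-0.47, SE 0.11) were lower, and Krt6b, at about the same size, lost its call with housekeeping scaling (-0.56, adjusted p = 0.0904), with the date label (-0.53, 0.0561) and within beadchip 1 (-0.48, 0.215) and beadchip 2 (-0.52, 0.13). Krt6a minus Krt16 differed by 0.44 (exact permutation p = 0.2, adjusted p = 0.229). Krt6a was above background on only 1 knock out array, which can enlarge this value. Probe sequences were not used here, so signal shared between close relatives such as Krt6a and Krt6b, or Krt14, Krt16 and Krt17, was not tested.

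**Figure D3:**
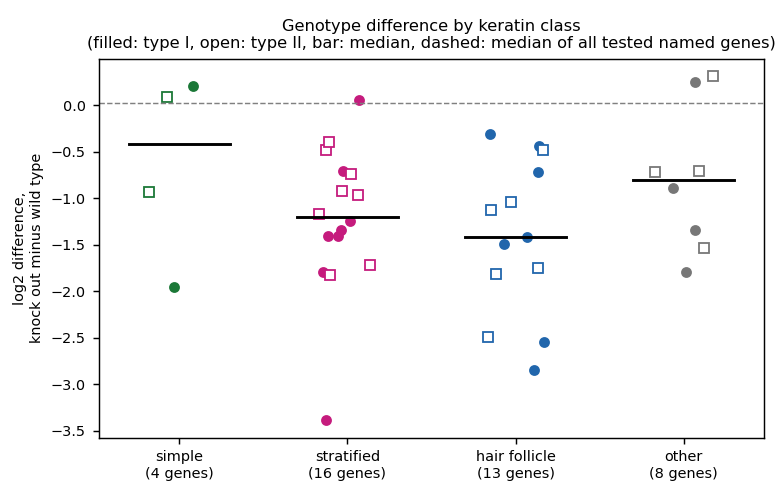
Log2 difference, knock out minus wild type (vertical axis), of each tested keratin gene by class (horizontal axis), with filled circles for type I, open squares for type II, a black bar at the class median and a dashed line at the median of all tested named genes (0.02). The simple class has a median of -0.42 over 4 genes, the stratified class -1.21 over 16 and the hair follicle class -1.42 over 13. With genes at their bound the stratified and hair follicle medians are -1.07 and -1.05, and with no filter -1.21 and -1.04.

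Hair follicle keratins were measured in cells that form no hair. Of 17 such genes 13 were tested. Of these 11 were lower, against 23.1% of all tested named genes. The median over the 13 was -1.42 (-1.05 with genes at their bound). All 13 passed the filter on the wild-type arrays and 8 were above background on all wild-type and no knock out arrays. With no filter, 12 of the 17 were lower, with a median of -1.04. Among hair shaft keratins, Krt36 read 9.46, 8.90 and 9.35 in wild type and 6.25, 6.48 and 6.42 in the knock out, at least 5.37-fold lower (adjusted p = 4.38e-07). Krt84, a type II keratin known from the tongue, read 10.18, 9.82 and 10.18 and then 7.64, 7.48 and 7.60. It stayed above background on all 6 arrays and was 5.61-fold lower (SE 0.12, adjusted p = 2.82e-07). Krt86 went from 9.41, 9.47 and 9.50 to 8.42, 8.44 and 8.39 (-1.04, SE 0.09), and its second probe differed by -0.94 (SE 0.10). Krt33a was at least 2.57-fold lower and Krt34 at least 2.07-fold lower. Krt82, of the hair cuticle, differed by -0.48 (SE 0.11, adjusted p = 0.00847), a call lost with housekeeping scaling (-0.56, adjusted p = 0.0829), with the date label (-0.44, 0.107) and within beadchip 1 (-0.39, 0.306) and beadchip 2 (-0.49, 0.116). Krt31 overlapped between the groups (-0.30, SE 0.12, adjusted p = 0.074) but passed without knock out replicate 3 (-0.41, adjusted p = 0.0251), after cyclic loess (-0.41, 0.0292) and with sex as a covariate (-0.36, 0.0477).

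The inner root sheath is the layer that moulds the growing hair. Of its 6 tested keratins 5 were lower, against 23.1% of all tested named genes. The type I gene Krt27 read 8.56, 8.36 and 8.51 in wild type and 5.84, 6.13 and 5.81 in the knock out, at least 3.18-fold lower (adjusted p = 1.78e-07). Its type II counterparts Krt71, Krt72 and Krt73 were at least 2.32-fold, 1.75-fold and 2.55-fold lower. Krt28 was at least 1.21-fold lower. None of these 5 was above background on a knock out array. Krt26 read 7.11, 7.08 and 7.11 and then 7.12, 6.53 and 6.35, so knock out replicate 1 reached the wild-type level and the difference did not pass (-0.44, SE 0.17, adjusted p = 0.0739). Without that array Krt26 passed (-0.66, adjusted p = 0.0037), as it did after cyclic loess (-0.54, 0.0407), and over the alternatives Krt26 ranged from -0.67 to 0.02. In all, 12 of the 41 tested keratin genes (29.3%) were above background on all wild-type arrays and no knock out array, against 7.16% of tested named genes.

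Of the remaining keratins, Krt23, a type I keratin, read 11.60, 11.42 and 11.75 in wild type and 10.21, 10.39 and 10.15 in the knock out, 2.52-fold lower (SE 0.12, adjusted p = 1.72e-05). A dimmer Krt23 probe differed by -0.56 (SE 0.15). Krt42, whose human counterpart is a pseudogene, was 3.48-fold lower (SE 0.13), with a second probe at -1.33 (SE 0.11). Krt90 differed by -1.53 (SE 0.12) and Krt24 by -0.89 (SE 0.11), and Krt80 was at least 1.25-fold lower. Krt78 read 10.56, 9.70 and 9.96 and then 9.41, 9.29 and 9.39 (-0.71, SE 0.19, adjusted p = 0.0148), with a second probe at -0.67 (SE 0.14). Krt78 did not pass without knock out replicate 2 (-0.67, adjusted p = 0.0586), with the date label (-0.59, 0.169) or within beadchip 2 (-0.62, 0.0564). Krt79, known from the ducts of sebaceous glands, read 10.88, 10.68 and 11.28 and then 11.23, 11.08 and 11.47. Its groups overlapped and the difference of 0.31 (SE 0.16, adjusted p = 0.152) did not pass. It passed without wild-type replicate 3 (0.48, adjusted p = 0.0311). Krt222 differed by 0.25 (SE 0.13, adjusted p = 0.151) and passed without wild-type replicate 1 (0.36, adjusted p = 0.0376). Over the alternatives Krt79 ranged from -0.02 to 0.48. Within beadchip 1, which leaves 3 arrays, Krt1, Krt28, Krt77, Krt80 and Krt78 also missed the threshold (adjusted p = 0.0515 to 0.277), and so did Krt80 within beadchip 2 (-0.70, 0.0524). Each of the 7 genes with more than 1 tested probe had the same call on all of them. Krt6a, Krt8, Krt10, Krt13, Krt80 and Krt82 each had 1 tested probe. Their further probes were above background on no array, wild type included.

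Type I and type II genes lie in a locus each, with Krt18 at the end of the type II locus. In the order of the RefSeq annotation the type I locus held 20 tested genes, of which 16 were lower. The type II locus held 21, of which 18 were lower. Together that is 34 of 41, against 23.1% lower among all tested named genes. In the type II locus the 17 tested genes from Krt80 to Krt4 were lower. Among them lay Krt81, Krt83 and Krt87, which had no probe, and Krt75 and Krt88, which had no tested probe. With no filter Krt75 (0.02) and Krt88 (-0.14) did not pass, so the run holds for tested genes only. The tested genes that did not pass were at the end of the type II locus (Krt79, Krt8 and Krt18, with Krt78 between Krt79 and Krt8). In the type I locus they were Krt222 at its outer end, Krt26, Krt31 and Krt17, while Krt32, Krt33b and Krt40 had no probe. Krt17 lay directly between Krt16 (-1.40) and Krt42 (-1.80), and Krt13 beside Krt36, both above background on no knock out array. No test of position was made.

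**Figure D4:**
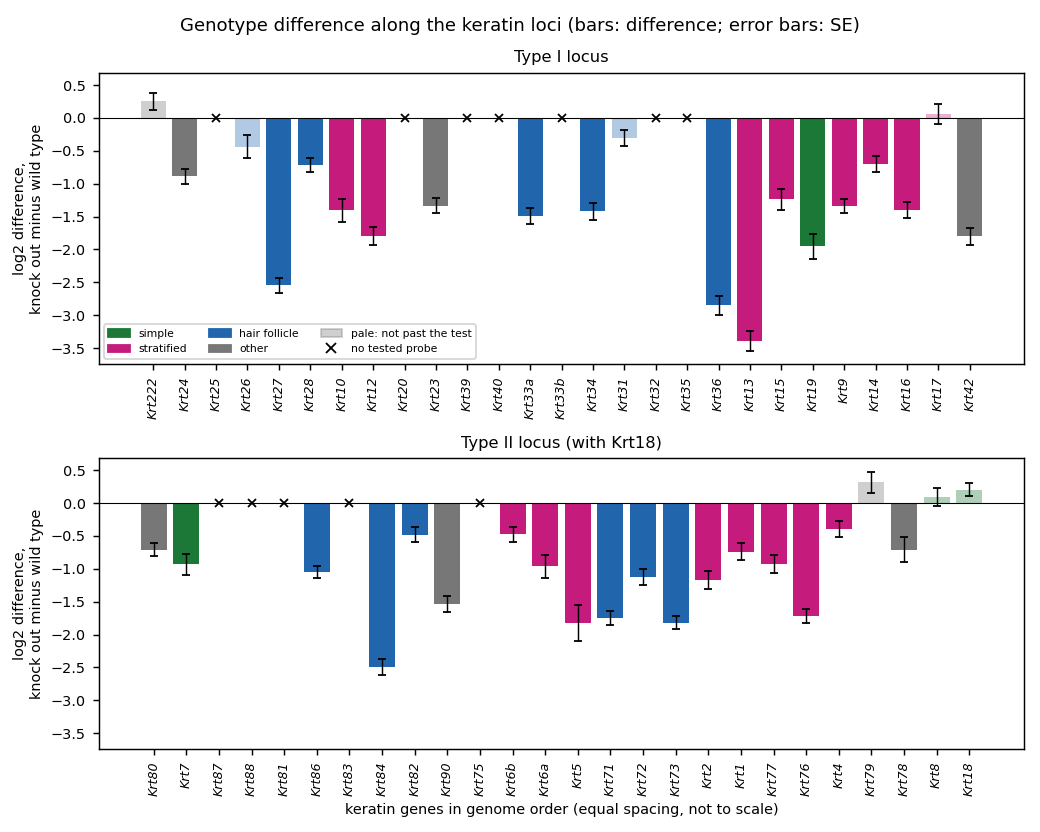
Log2 difference, knock out minus wild type, with its SE (vertical axis, bars start at 0) for the keratin genes of the type I locus (upper panel) and the type II locus with Krt18 (lower panel) in genome order, coloured by class, pale where the test was not passed and a cross where no probe was tested. Most bars point down, and the pale bars of Krt79, Krt8 and Krt18 stand at the right end of the lower panel.

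The 6 keratins with no tested probe were Krt20, Krt25, Krt35, Krt39, Krt75 and Krt88. Their array values lay between 5.58 and 6.84, and only Krt35 exceeded the bound, on wild-type replicate 3. With no filter on dim probes Krt35, a hair shaft keratin, was lower (-0.68, SE 0.09, adjusted p = 0.00177) and the other 5 did not pass.

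The knock out arrays differed in how low the keratins were. The median deviation of the 41 genes from their wild-type mean was -1.26 on knock out replicate 1, -1.19 on replicate 2 and -0.94 on replicate 3. Among the 34 lower genes replicate 1 was the highest of the knock out arrays for 11 and the lowest for 6, replicate 2 for 9 and 17, and replicate 3 for 14 and 11. Replicate 3 was the highest for Krt5, Krt19, Krt6a, Krt7, Krt10, Krt15 and Krt14, whose knock out arrays spanned 0.47 to 1.27. The typical SD was 0.18 in wild type and 0.16 in the knock out (medians over 41 genes). A test of whether the genotype difference depended on sex found no keratin gene (limma, lowest adjusted p = 1.00), in a model with 2 arrays or 1 in each cell, with 0% of all probes called and 2 keratins, Krt10 and Krt19, at an unadjusted p under 0.05. Krt10 differed by -1.85 in females and -0.95 in males, and Krt19 by -2.38 and -1.52. The difference pointed down in both sexes for 36 of the 41 genes. The same 36 had a difference below 0 over all 6 arrays, so this count is not separate evidence. The share among all named genes was not counted.

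Genes that work with keratins were read from lists chosen by function. Of 15 tested cornifying partners, proteins that bind keratin or build the cornified envelope, 12 were lower and 1 higher (median -0.79), against 23.1% lower and 18.3% higher among all tested named genes. Those lower included the caspase of cornification Casp14 (at least 3.32-fold lower), loricrin (Lor, -1.87, SE 0.12), and the envelope precursors Sprr1b (-1.87, SE 0.11) and Sprr1a (-1.65, SE 0.11). The gene that was higher was the transglutaminase Tgm3 (0.73, SE 0.13). Within either beadchip 6 were lower. Of 12 tested other intermediate filament genes 7 were lower and 1 higher (median -0.45), against the same shares of named genes. They included peripherin (Prph, -1.24, SE 0.13), lamin B2 (Lmnb2, -1.20, SE 0.15) and the glial filament Gfap (at least 1.34-fold lower), while desmin (Des, 0.94, SE 0.12) was higher. Vimentin (Vim) differed by 0.04 (SE 0.12) and did not pass.

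Of 15 tested filament anchors, the proteins of desmosomes and hemidesmosomes to which keratins attach, 3 were lower and 4 higher (median 0.06), against 23.1% lower and 18.3% higher among all tested named genes. The listed anchors Dsp, Dsc1, Dsc2, Dsc3 and Perp were not above background and are not in these counts. Plakoglobin (Jup, -0.86, SE 0.16) and envoplakin (Evpl, -0.75, SE 0.15) were lower, and the desmoglein Dsg2 (0.68, SE 0.12) and the integrin Itga6 (0.48, SE 0.12) were higher. With housekeeping scaling no anchor was higher and 2 were lower, and without knock out replicate 2 only 2 were higher. Of 15 tested transcription factors and other regulators of keratin genes or filaments 6 were lower and 1 higher (median -0.24), against the same 23.1% and 18.3%. Foxn1, Hoxc13, Lef1 and Ehf of this list were not above background. Klf5 (-1.55, SE 0.10), Trim29 (-1.31, SE 0.28) and Klf4 (-0.60, SE 0.14) were lower and Grhl3 (0.52, SE 0.14) was higher. With housekeeping scaling or the date label 3 regulators were lower and none higher, and without knock out replicate 2 none was higher. Trp63, the master regulator of stratified epithelia, differed by 0.05 (SE 0.12) and did not pass. Of 5 tested markers of cornifying mTECs, a later stage of these cells, 4 were lower and Dsg1a was higher. Among all tested named genes 23.1% were lower and 18.3% higher. The marker Spink5 was not above background. The summed level of the 5 tested markers was 4273 to 5219 in wild type and 2497 to 2915 in the knock out. These 5 are also in other lists: Lor, Ivl and Krtdap among the cornifying partners, Dsg1a among the anchors and Grhl1 among the regulators. Their part in the keratin falls was not tested.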

How the data were processed

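Total RNA of 6 samples was measured on single-colour Illumina bead arrays. Per the submitters' processing notes, BeadStudio and lumi were used, without versions. The authors deposited 1 table of normalized log2 values with a column for each sample. Nothing states whether these are plain log2 values or lumi's variance-stabilizing transform, or how they were normalized, and folds were computed as if they were plain log2. The other 24 value columns carry names that match no label and were not used. Gene symbols came from the platform annotation: 32782 probes had 1 symbol, 55 several and 13782 none.

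Background on each array was the mode of its values plus 3 SD of those below it (6.81). Tests used limma 3.58.1 under R 4.3.3, with genotype as the single term in lmFit and eBayes, and were tested on simulated data. P-values are two-sided, and adjusted ones (Benjamini-Hochberg, 19420 probes) were called under 0.05. The number of arrays limits the precision. Keratin members, classes, lists and tests were chosen with earlier results of these data known. The text names Aire, every tested keratin, and up to 4 called genes of each partner list, with the largest change. Anchors and regulators not above background, and Spink5, are named too. Tgm3, Vim, Trp63, the cornifying markers, Krt35 with no filter and the 8 pairs were chosen after their values were seen, and Krt88 was given its class after the files were opened. Same-numbered samples did not deviate together (r of 0.20, -0.06 and -0.02 for replicates 1 to 3), so the numbers were not treated as pairs. Alternatives were other scalings, background corrections, filters, covariates, single beadchips, averaged probes and leaving out each array. A filter on the mean over the 6 arrays was chosen after seeing the data.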

Additional observations from a re-analysis of the deposited data

How the results depend on the processing

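All alternatives kept every keratin gene that passed in the deposited values in its direction, and the count of lower keratin genes stayed between 25 and 36, except for 19 when the filter required signal above background on all 6 arrays, which tests fewer genes. Leaving out each array in turn gave 32 to 35 lower keratin genes and 0 to 1 higher, medians of -1.44 to -1.28 for type I, -1.26 to -1.13 for stratified and -1.51 to -1.35 for hair follicle keratins, 2457 to 4111 higher probes, 1 to 2 higher other intermediate filaments, 2 to 5 higher filament anchors and 0 to 1 higher regulators. The replicate block gave 35 lower and 1 higher keratin gene (Krt79, adjusted p = 0.0481), with Krt26 lower (adjusted p = 0.0446), and not every sample correlated best with its own number. Cyclic loess gave 2341 higher probes, medians of -1.25 over all keratins, -1.32 for stratified and -1.56 for hair follicle keratins, and 0 higher regulators. Housekeeping scaling, with 20 genes, gave 952 higher probes, medians of -1.29 (stratified) and -1.50 (hair follicle), 0 higher anchors, and 3 lower and 0 higher regulators. Normexp on antilog values with an offset of 16 gave medians of -1.36 (all), -1.45 (type I), -1.11 (type II), -1.42 (stratified) and -1.90 (hair follicle). Genes above background on all 6 arrays gave 1885 lower probes, medians of -0.99 (all), -1.34 (stratified) and -1.76 (hair follicle) and 4 lower other filaments. The hair follicle value under this filter rests on Krt84 (-2.49) and Krt86 (-1.04) alone, since the rest of the class was dropped. Beadchip 1 alone gave 1467 lower and 515 higher probes, a hair follicle median of -1.49, 2 lower other filaments, 1 lower and 0 higher anchors, 6 lower and 0 higher cornifying partners, and 2 lower and 0 higher regulators. Beadchip 2 alone gave 1706 lower and 905 higher probes, medians of -0.28 (simple), -1.29 (stratified) and -1.35 (hair follicle), 4 lower other filaments, 0 lower and 0 higher anchors, 6 lower cornifying partners, and 1 lower and 0 higher regulators. Sex as a covariate gave a hair follicle median of -1.32. The date label gave 2242 lower and 1653 higher probes, medians of -1.45 (type I), -0.25 (simple), -1.30 (stratified) and -1.32 (hair follicle), 0 lower and 1 higher anchors, and 3 lower and 0 higher regulators. Probes averaged by gene gave a median of -0.99 over all keratins and 2 higher other filaments. Apart from the smaller numbers of genes or arrays, the cause was not tested. Signal near background limits the folds of 12 keratin genes to lower bounds. Of the rest, 3 were above background on 1 knock out array and 2 on 2, so their differences may also be understated.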
